A study of Mus musculus with 22 samples.

Results

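The genes described here are *Reln*, *Vldlr*, *Lrp8* and *Dab1*, 4 of the 37991 genes in the RNA-seq count tables. They encode the ligand, both receptors and the adaptor of Reelin signalling. They were chosen by name, with the counts of *Vldlr* and *Dab1* in the E14.5 livers already known. The genotype difference in these counts therefore took part in the choice and is given as a description, with no p-value. DNA methylation at the genes was not used to choose them. Whole genome bisulphite sequencing (WGBS), which reads each CpG as methylated or unmethylated, covered whole embryos at E10.5 and livers at E14.5 and at E18.5, and each stage had 2 libraries per genotype. RNA-seq was available for 3 wild-type and 3 homozygous E14.5 livers. Wild-type animals were *Rlf* +/+ and homozygous animals carried the MommeD28 allele on both chromosomes, an ENU-induced null allele of *Rlf* (*Rearranged L-myc fusion*). All animals were of the inbred FVB/NJ strain *Line3* and, in both genotypes, had on both homologues the GFP reporter array of that line, whose copies use regulatory DNA of the human alpha-globin locus (its promoter and the enhancer HS-40). The E10.5 embryos were male and the E18.5 livers female. In E14.5 WGBS, replicate 1 of each genotype was male and replicate 2 female, and in RNA-seq replicates 1 and 2 were male and replicate 3 female. Stage, tissue and sex differ together between the WGBS groups and cannot be told apart. *Lrp8* and *Dab1* lie on chromosome 4 as *Rlf* does, 13.4 and 16.8 Mb from its start. The part of sequence linked to the mutation was not tested.

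Reelin is a large secreted glycoprotein. It binds the VLDL receptor, encoded by *Vldlr*, and the apolipoprotein E receptor 2, encoded by *Lrp8*. Both belong to the LDL receptor family and have cytoplasmic tails that bind the adaptor Dab1. Src family kinases then phosphorylate Dab1, and the pathway guides the placement of neurons in the developing brain. Outside the brain, the VLDL receptor takes up triglyceride-rich lipoproteins, and Reelin is known as a product of hepatic stellate cells.

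All 4 genes start in a CpG island. On mm9, *Reln* (ENSMUSG00000042453) runs from 21850520 to 21390272 on the minus strand of chromosome 5, *Vldlr* (ENSMUSG00000024924) from 27291847 to 27328721 on the plus strand of chromosome 19, *Lrp8* (ENSMUSG00000028613) from 107474919 to 107546504 on the plus strand of chromosome 4, and *Dab1* (ENSMUSG00000028519) from 104040176 to 104417447 on the plus strand of chromosome 4. These are the starts of the annotated transcript with the longest coding sequence. The 250 bases before them held 37 CpGs in *Reln*, 29 in *Vldlr*, 36 in *Lrp8* and 37 in *Dab1*, against a median of 9 over 22337 protein-coding genes. The GC box GGGCGG, searched on both strands, was in all 4 windows and in 41.1% of all such windows. TATAAA was in none of the 4 and in 12.3% of all, and CCAAT in none of the 4 and in 34.7% of all. Sequences are shown for *Vldlr* and *Dab1*, the genes with the higher counts in homozygous livers, because they show how methylation changed with distance from the start. The first kind is the 250 bases just upstream of the first annotated exon near the start, at chr19:27290724-27290973 for *Vldlr* and chr4:104039468-104039717 for *Dab1*, on the plus strand, with CpGs in capitals.
Vldlr upstream: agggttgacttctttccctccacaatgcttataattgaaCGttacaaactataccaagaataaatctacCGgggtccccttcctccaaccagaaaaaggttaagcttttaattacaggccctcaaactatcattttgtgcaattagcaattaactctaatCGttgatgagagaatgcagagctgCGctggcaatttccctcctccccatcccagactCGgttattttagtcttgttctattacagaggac
Dab1 upstream: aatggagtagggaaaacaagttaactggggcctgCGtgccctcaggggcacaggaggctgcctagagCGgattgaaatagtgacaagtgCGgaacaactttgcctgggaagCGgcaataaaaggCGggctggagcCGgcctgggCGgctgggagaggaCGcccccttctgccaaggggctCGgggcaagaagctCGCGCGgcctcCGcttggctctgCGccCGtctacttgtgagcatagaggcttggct

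The *Dab1* stretch held 15 CpGs, and between 0.00% and 2.48% of its reads were methylated in the 12 libraries. The *Vldlr* stretch held 5 CpGs, lies outside the island, in the upstream shore, and ranged from 6.12% to 17.0%. The second kind is from farther out in the shores, the 2 kb to either side of an island. At chr19:27290154-27290379, upstream of *Vldlr*, and at chr4:104042454-104042713, in the first intron of *Dab1*, methylation was intermediate. These stretches were picked after their values were seen and carry no test.
Vldlr shore: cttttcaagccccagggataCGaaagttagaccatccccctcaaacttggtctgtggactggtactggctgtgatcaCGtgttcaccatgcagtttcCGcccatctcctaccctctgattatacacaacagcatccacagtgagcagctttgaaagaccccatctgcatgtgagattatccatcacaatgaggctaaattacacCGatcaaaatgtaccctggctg
Dab1 shore: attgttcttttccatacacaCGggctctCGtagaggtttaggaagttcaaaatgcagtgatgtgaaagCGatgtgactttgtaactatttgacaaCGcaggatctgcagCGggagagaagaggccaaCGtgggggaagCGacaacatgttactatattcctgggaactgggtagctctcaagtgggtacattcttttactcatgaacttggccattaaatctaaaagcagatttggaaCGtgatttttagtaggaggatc

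The 4 CpGs of the *Vldlr* shore stretch were methylated in 43.1% and 47.2% of reads in the wild-type E14.5 livers and in 56.4% and 57.3% in the homozygous livers. In E10.5 embryos the values were 64.2% and 59.3% against 61.5% and 74.1%, and in E18.5 livers 57.3% and 59.9% against 69.6% and 62.5%. Thus the genotypes did not overlap in either liver stage and overlapped in the embryo. For whole shores, which were not picked by their values, the homozygous livers lay above in 38.5% and 34.1% of genes. The whole *Vldlr* shores overlapped in E18.5 livers (11.3% and 12.3% against 12.9% and 11.3%). The 8 CpGs of the *Dab1* shore stretch were methylated in 31.9% and 43.0% of reads in wild-type and 55.9% and 56.0% in homozygous E10.5 embryos. They were methylated in 31.7% and 40.0% against 48.4% and 47.8% of reads in E14.5 livers, and in 45.8% and 47.6% against 59.7% and 52.4% in E18.5 livers. In this picked stretch the homozygous libraries lay above the wild-type libraries at all 3 stages. Whole shores did so in 10.9% of genes, and the whole *Dab1* shores did not, as they overlapped in embryos (45.9% and 57.0% against 52.4% and 52.3%).

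The WGBS libraries had 14.7 to 16.7 reads per reference CpG at E10.5. The range was 28.9 to 32.6 at E14.5 and 15.9 to 16.4 at E18.5. The share of reads left unconverted at CpGs of the unmethylated lambda spike-in was 0.0412% to 0.0775%. The RNA-seq libraries had 12928313 to 14621004 counts. *Rlf* itself had 70.0, 72.3 and 68.9 CPM, the count scaled to library size, in wild-type livers and 76.3, 79.8 and 67.6 in homozygous livers. Its mRNA level does not check the genotype, because an ENU allele need not lower mRNA. Erythroid and hepatoblast markers were abundant in every E14.5 liver. The labels give the samples as numbered replicates, and the p-values below rest on the spread between their libraries. The paper describes the E14.5 WGBS livers as those of littermates.

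*Vldlr* and *Dab1* had higher counts in homozygous livers. *Vldlr* had 12.7, 19.0 and 15.4 CPM in wild-type livers and 30.9, 30.4 and 22.9 in homozygous livers, from 167 to 421 reads a library. All 3 homozygous livers lay above all 3 wild-type livers, and the log2 fold change was 0.83 ± 0.15 (SE), or 1.78-fold. *Dab1* was rare in this tissue, at 1.602, 2.31 and 2.03 CPM in wild-type livers and 3.88, 3.82 and 3.79 CPM in homozygous livers. These values rest on 21, 35 and 29 reads against 50, 53 and 54. The groups did not overlap, and the log2 fold change was 0.94 ± 0.20 (SE), or 1.92-fold. In bulk livers, a higher share of the cells that express a gene and more of its RNA per cell cannot be told apart.

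*Reln* and *Lrp8* overlapped between the genotypes. *Reln*, the ligand, had 196, 218 and 220 CPM in wild-type livers and 327, 207 and 250 in homozygous livers. The first homozygous liver was high, the second lay between the wild-type livers, and the log2 fold change was 0.30 ± 0.13 (SE). With 1 liver left out it ranged from 0.11 to 0.45. *Reln* shares exon sequence with *Gm10475* on the opposite strand. Reads were counted without strand, so the reads of both genes cannot be told apart there. In the intersection-strict mode that the paper names, a read wholly within exons of both genes is counted for neither. How many reads *Reln* lost this way was not measured. *Lrp8* had 22.96, 23.2 and 24.8 CPM in wild-type livers and 26.9, 24.3 and 28.0 in homozygous livers, a log2 fold change of 0.16 ± 0.09 (SE). For scale, over the 14183 genes tested, 0.698% were higher in homozygous livers at an adjusted p under 0.05 (edgeR quasi-likelihood test with Benjamini-Hochberg adjustment), and the homozygous livers all lay above the wild-type livers for 10.51%. Since the rule used this contrast, nothing is read from the count of 2 of 4. With the replicate number as a block, 460 genes were called in place of 197.

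**Figure D1:**
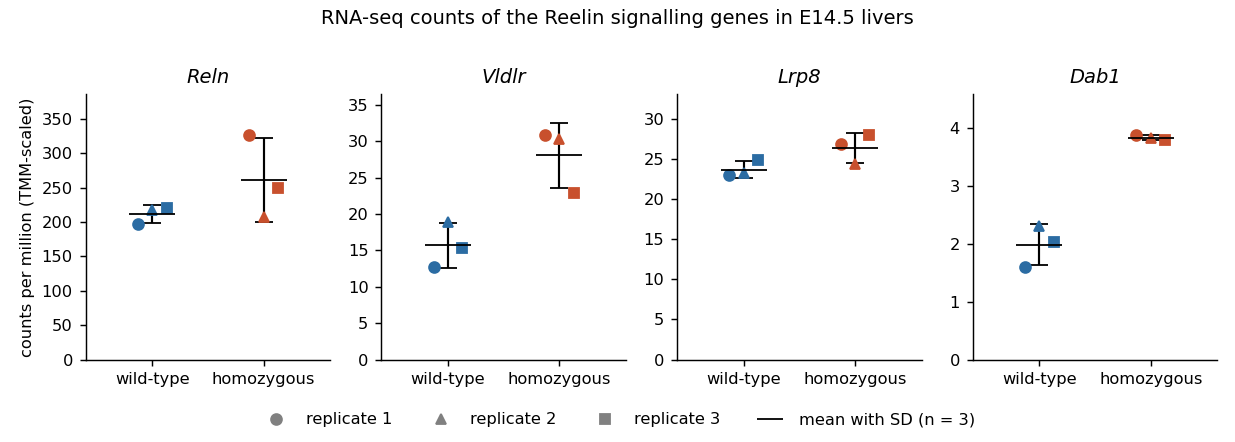
TMM-scaled CPM (vertical axes, starting at 0, one scale per gene) of the 4 genes in the E14.5 livers. Each symbol is a liver, shaped by replicate, and the bars are the mean with SD (n = 3). The genotypes are apart for Vldlr and Dab1 and overlap for Reln and Lrp8.

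Per length, the ligand was the most abundant of the 4 and the adaptor the rarest. On the scale of RPKM, which divides counts by the length of the annotated exons and by depth, the mean level in wild-type livers was 10.7 ± 0.657 (SD, n = 3) for *Reln*, 2.25 ± 0.0969 for *Lrp8*, 1.56 ± 0.310 for *Vldlr* and 0.249 ± 0.0450 for *Dab1*. In homozygous livers the means were 13.2 ± 3.06, 2.51 ± 0.180, 2.79 ± 0.445 and 0.482 ± 0.00570. *Lrp8* stood above *Vldlr* in each wild-type liver. In homozygous livers the receptors differed by less than the SD of *Vldlr*.

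As a description over the 6 livers, the genes whose log2 CPM followed each member most closely were taken from 13636 genes with at least 1 CPM. For *Vldlr* these were *Adcy1* (r = 0.997), *Topors* (0.996) and *Igsf8* (0.996), for *Lrp8* *Lcor* (0.995), *Plagl1* (0.988) and *Bach1* (0.987). For *Dab1* they were *Kcna3* (0.995), *Sh3rf1* (0.994) and *Tmtc4* (0.994), and for *Reln* *Dync2h1* (0.999), *1500010J02Rik* (0.994) and *Bdp1* (0.989). The 6 points share library depth and the same 2 genotypes. These genes were picked as the highest r among 13636 genes over only 6 points, so no link is read from them. A high r also leaves the size of the change open, as the log2 fold change was 0.72 for *Adcy1* and 0.15 for *Topors* against 0.83 for *Vldlr*.

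A list of 32 further genes of the pathway held the Src family kinases, adaptors and effectors around Dab1 and membrane proteins linked to the receptors. This list and the second one below were chosen with earlier results of these data known. Their p-values and counts of calls are therefore given as a description. Of these, 31 were tested, 1 was called higher and 0 lower in homozygous livers (7 at an unadjusted p under 0.05, edgeR, against 2071 of all 14183 tested genes), where 1.39% of all tested genes were called. For 9 of the 31 all homozygous livers lay above all wild-type livers, against 10.51% of all tested genes. For 2 they lay below, against 1395 of the 14183. The median log2 fold change of the list was 0.05, against -0.0017 over all tested genes. The gene called was *Efnb2*, which encodes ephrin-B2, a membrane ligand that interacts with the Reelin receptors. It had 7.32, 7.73 and 7.93 CPM in wild-type livers and 10.9, 12.1 and 10.7 in homozygous livers (log2 fold change 0.55 ± 0.12 SE, adjusted p = 0.0443 in edgeR). The call was lost in each fit that left out 1 of the 6 livers, so the list then had 0 called, and DESeq2 gave an adjusted p of 0.0775. The next largest differences were 0.40 for *Socs3*, a suppressor of cytokine signalling (adjusted p = 0.235, edgeR), 0.33 for the integrin gene *Itga3* (adjusted p = 0.138) and 0.22 for the kinase subunit gene *Pik3cb* (adjusted p = 0.106).

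The family and ligands of the receptors were a second list, likewise chosen with earlier results known. Of 23 genes, 22 were tested, 2 were called higher and 0 lower in homozygous livers, where 0.698% of all tested genes were called higher. In edgeR 7 had an unadjusted p under 0.05, against 2071 of all 14183 tested genes. The median log2 fold change of the list was 0.14. All homozygous livers lay above all wild-type livers for 6 of the 22, against 10.51% of all tested genes, and below for 0. *Clu*, encoding clusterin, a ligand of both receptors, had 100.5, 107 and 119 CPM in wild-type and 146, 165 and 163 in homozygous livers (log2 fold change 0.54 ± 0.08 SE, adjusted p = 0.00516 in edgeR). *Apoe*, encoding the apolipoprotein that both receptors bind, had 1684, 1537 and 1488 CPM against 2039, 2347 and 1898 (0.42 ± 0.08 SE, adjusted p = 0.0334 in edgeR). The *Apoe* call was lost without wild-type replicate 2 or 3 or homozygous replicate 1 or 2 (adjusted p = 0.0515, 0.134, 0.125 and 0.0872), whereas *Clu* kept its call without any one liver. Of the others, *Thbs1*, encoding thrombospondin-1, differed by 0.39 (adjusted p = 0.0636, and 0.0109 with the replicate number as a block, edgeR, and 0.00259 in DESeq2), *Lrp1* by 0.27 (adjusted p = 0.574, and -0.06 without homozygous replicate 1) and *Lrp12* by 0.26 (adjusted p = 0.358). *Lrp1b* had no reads in any liver. Without wild-type replicate 3 or homozygous replicate 1, 1 of the 22 was called.

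Some markers of the cell types of fetal liver differed between the genotypes. Of all 14183 tested genes, 197 were called and 2071 had an unadjusted p under 0.05. The summed CPM of 8 hepatoblast markers was 55692 to 66222 in wild-type and 68162 to 79058 in homozygous livers, with 0 of 8 called by edgeR (1 at an unadjusted p under 0.05). *Alb* and *Afp* make up most of this sum, and *Ttr*, *Apoa1* and *Krt8* differed by 0.03, 0.06 and -0.04 on the log2 scale. The 6 megakaryocyte markers summed to 491 to 515 against 580.1 to 650.4, with 1 called (*Pf4*, higher, lost without wild-type or homozygous replicate 3, adjusted p = 0.0665 and 0.0652) and 5 at an unadjusted p under 0.05, and the 6 macrophage markers to 439 to 480.5 against 345 to 384, with 1 called (*Cd5l*, lower) and 3 at an unadjusted p under 0.05. Among the macrophage markers *Marco* differed by -0.59, *C1qa* by 0.06 and *Csf1r* by 0.09 on the log2 scale, none of them called. Mesenchymal and stellate markers, which belong to cells known to make Reelin, summed to 854, 740 and 977 CPM in wild-type livers and 879, 803 and 1216 in homozygous livers, and these groups overlapped, with 0 of 8 called by edgeR and 3 at an unadjusted p under 0.05. The collagen genes make up most of this sum. For 2 of the 8 all homozygous livers lay above all wild-type livers, against 10.51% of all tested genes. For 0 they lay below, and the others overlapped. The 2 were *Pdgfrb* (25.4, 25.7 and 25.5 CPM against 34.5, 28.1 and 33.1, log2 fold change 0.32, adjusted p = 0.105 in edgeR) and *Lrat* (0.36, adjusted p = 0.267). Neither was called. The 8 erythroid markers summed to 28241 to 52706 against 35468 to 38376, with 1 at an unadjusted p under 0.05, and the 7 endothelial markers to 270.4 to 298 against 299 to 352, with 4. The 6 neural markers summed to 1.52 to 7.996 CPM against 1.79 to 3.09, and only *Dcx* among them had enough reads to be tested. The part of these cells in the levels of the 4 genes was not tested.

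Methylation was measured at 3 places in each gene, using CpGs that every one of the 12 libraries covered with 6 or more reads. The start window is the 1 kb to either side of the start, and held 184 such CpGs in *Reln*, 129 in *Vldlr*, 138 in *Lrp8* and 144 in *Dab1*. The shores held 40, 84, 56 and 27, and the gene body, from the start window to the end, 2563, 246, 935 and 2487. A value is the percent of reads over these CpGs that were methylated, and a difference is homozygous minus wild-type in percentage points.

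**Figure D2:**
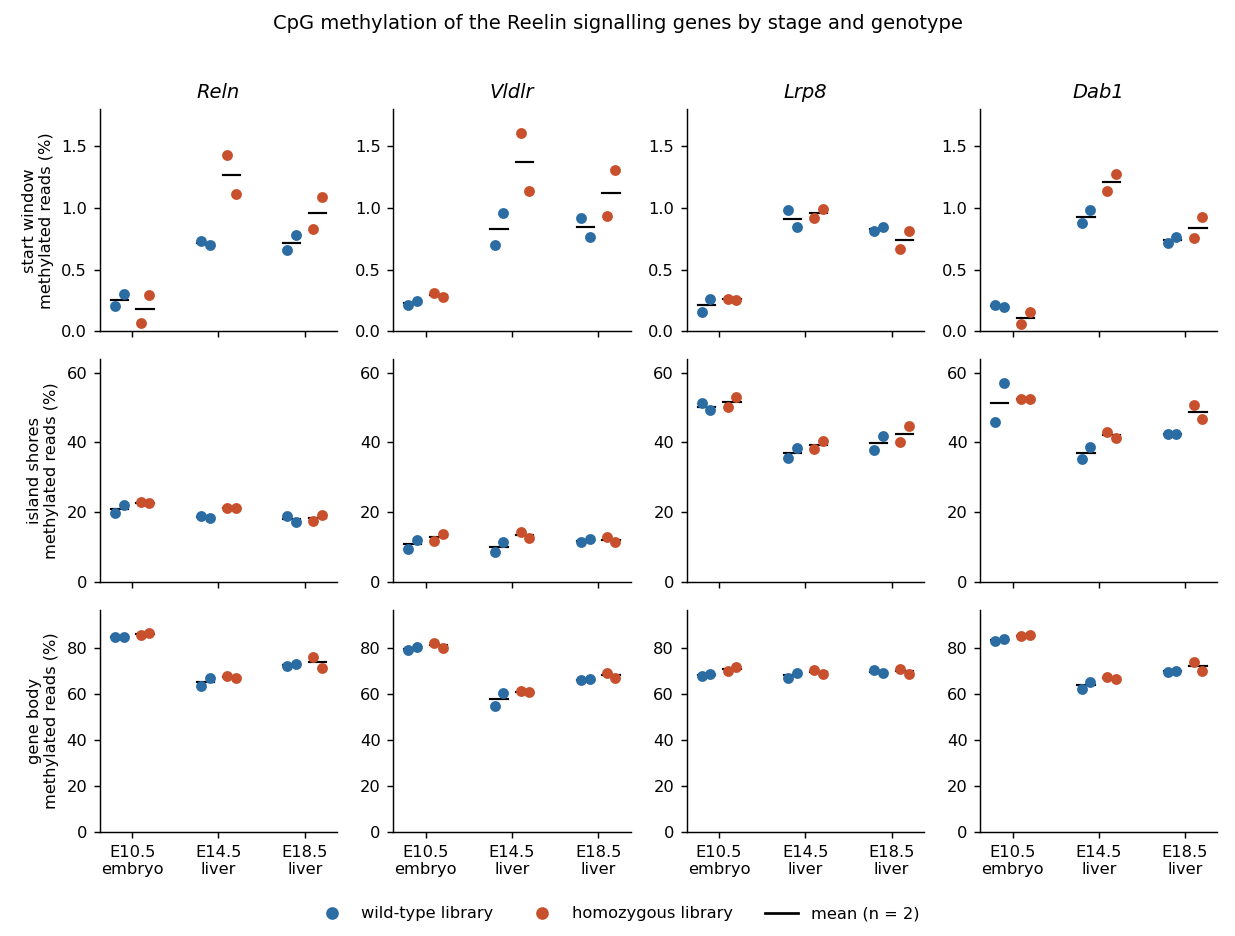
Percent of methylated reads (vertical axes, one scale per row, from 0) in the start window, the shores and the body of the 4 genes, by stage. Each point is a library and each line the mean of 2. Start windows stay under 2% throughout, and the body of Lrp8 keeps near 70% while the other bodies are lower in E14.5 liver than in E10.5 embryo.

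The start windows of all 4 genes were almost free of methylation, in both genotypes and at every stage. *Reln* had 0.203% and 0.306% in wild-type E10.5 embryos, 0.733% and 0.7001% in wild-type E14.5 livers, and 0.659% and 0.776% in wild-type E18.5 livers. *Vldlr* rose from a mean of 0.229% in wild-type embryos to 0.829% in wild-type E14.5 livers (adjusted p = 0.00368), *Lrp8* from 0.210% to 0.912% (adjusted p = 0.00206), *Dab1* from 0.205% to 0.928% (adjusted p = 0.00129) and *Reln* from 0.255% to 0.717% (adjusted p = 0.00552), in edgeR over the windows of 19874 genes. Across those windows, 51.4% were called between these stages and 14.501% were higher in E14.5 liver. The unconverted share of lambda was 0.0544% and 0.0584% in the wild-type embryos and 0.0412% and 0.0590% in the wild-type E14.5 livers. The median of the 4197 windows under 1% in wild-type embryos was 0.315% there and 0.510% in wild-type E14.5 livers. Of these 4197 windows, 2920 (69.6%) were higher in wild-type E14.5 livers. They were picked by a low value in the embryos, so the rise of this set is not read as a result. Between E14.5 and E18.5 none of the 4 was called, where 0.00503% of all windows were.

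Between genotypes, the start windows differed by at most 0.55 points. In E14.5 livers *Vldlr* had 0.702% and 0.957% in wild-type and 1.603% and 1.14% in homozygous libraries (difference 0.54 points, adjusted p = 0.424, edgeR), and *Reln* had 0.733% and 0.7001% against 1.43% and 1.11% (0.55 points, adjusted p = 0.347). With 1 library left out these differences ranged from 0.307 to 0.774 points in *Vldlr* and from 0.391 to 0.709 in *Reln*. None of the 4 was called at any stage, where edgeR called 0.926% of windows in E10.5 embryos, 0 of 19874 in E14.5 livers (2253 at an unadjusted p under 0.05) and 0.337% in E18.5 livers. With the replicate number as a block, *Reln* was called in E14.5 livers (adjusted p = 0.0167), where 5.45% of windows were. Both homozygous libraries lay above both wild-type libraries in 34.6%, 36.3% and 28.2% of all windows at the 3 stages. Those of *Vldlr* lay above the wild-type libraries at all 3 stages, as did those of 7.74% of genes. At E10.5 this rests on 8 and 8 methylated reads against 9 and 8, and with equal weight per CpG the genotypes overlapped there (0.215% and 0.324% against 0.324% and 0.234%). *Dab1* was lower in both homozygous embryos than in both wild-type embryos, as were 7.78% of windows, from 2 and 5 methylated reads against 9 and 7. Averaged over the stages, the *Vldlr* difference was 0.295 points (exact two-sided permutation p = 0.00926, the smallest that the arrangements can give, adjusted p = 0.0899 in edgeR, where 5.82% of windows were called). It was 0.239 points in *Reln*, 0.0927 in *Dab1* and 0.0007 in *Lrp8* (exact two-sided permutation p = 0.0833, 0.204 and 0.954).

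In the 500 bp bins around the start, levels stayed near 0 within the island. In *Vldlr* and *Reln* the low level ran on into the downstream shore, at 2.65% to 5.97% and 1.49% to 6.52% in the 12 libraries. A distal start of *Dab1*, at 103292270 on chromosome 4 (transcript Dab1-002), was likewise low, with 1.16% and 1.62% in wild-type against 1.43% and 2.27% in homozygous embryos, 3.37% and 3.54% against 5.71% and 5.15% in E14.5 livers, and 2.997% and 2.68% against 3.93% and 3.82% in E18.5 livers. The starts of shorter transcripts inside *Vldlr* (Vldlr-009), *Lrp8* (Lrp8-003) and *Dab1* (Dab1-005, Dab1-008) were methylated, from 60.6% to 94.98%.

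**Figure D3:**
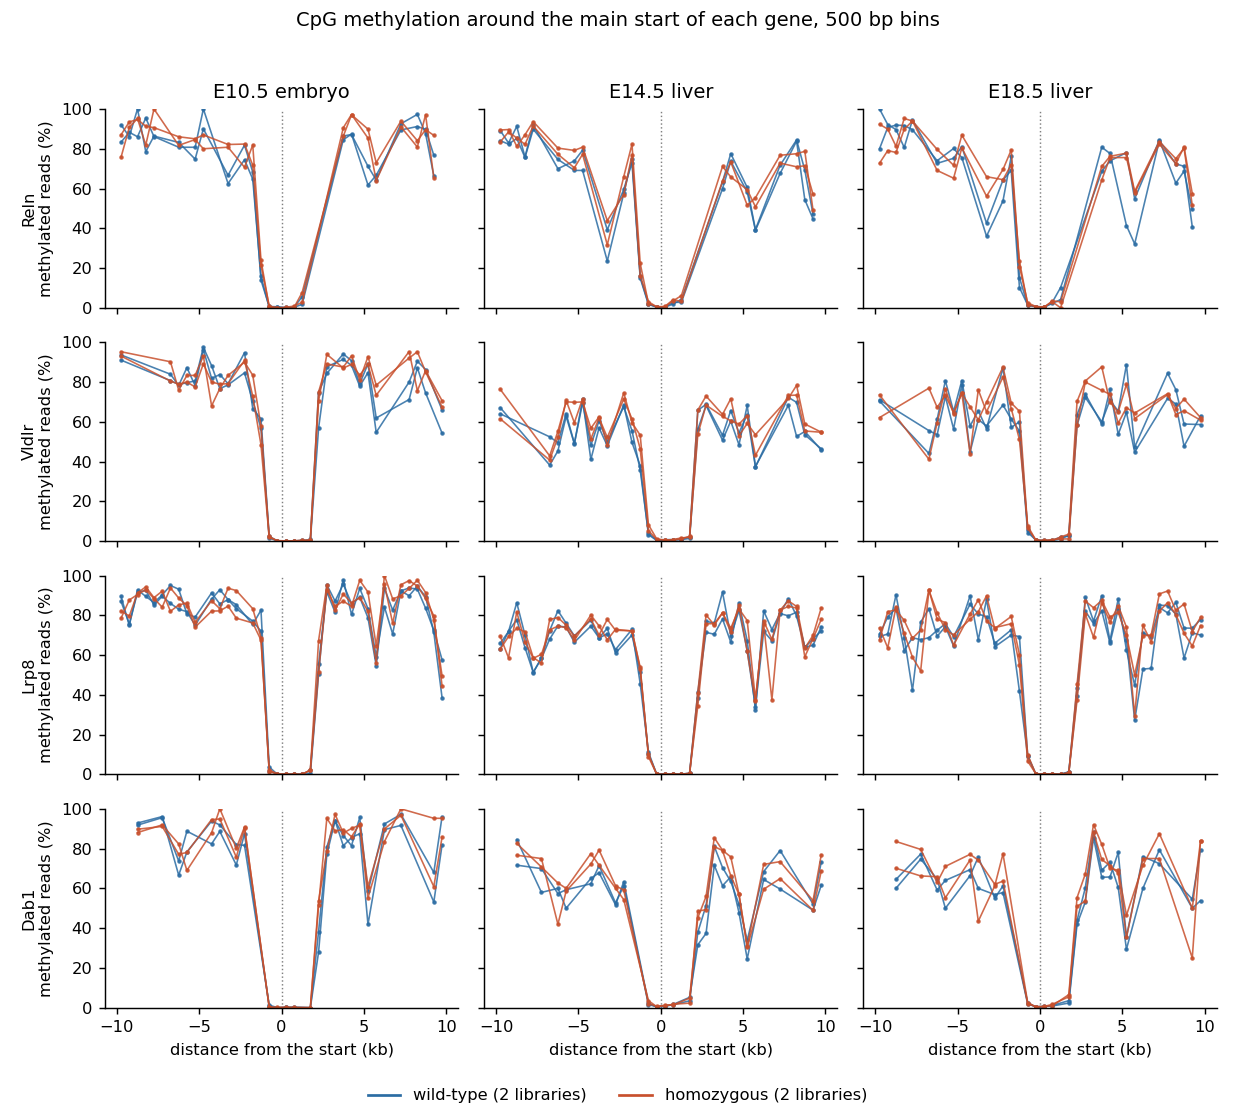
Percent of methylated reads in 500 bp bins (vertical axes, 0 to 100) against distance from the start in kb (horizontal axes, positive into the gene) for the 4 genes and 3 stages. Each line is a library, and bins without enough covered CpGs are skipped and bridged by a straight line. The lines of both genotypes run close together, at or near 0% around the start.

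The shores of the 4 genes fell into a low pair and an intermediate pair. In wild-type E14.5 livers *Vldlr* had 8.52% and 11.4%, *Reln* 18.8% and 18.4%, *Lrp8* 35.4% and 38.4% and *Dab1* 35.2% and 38.7%. The shores of *Dab1* fell from a mean of 51.4% in wild-type embryos to 36.9% in wild-type E14.5 livers (adjusted p = 0.00180) and those of *Lrp8* from 50.3% to 36.9% (adjusted p = 0.000162), in edgeR. Of the shores of 10909 genes, 70.0% were called between these stages and 61.7% were lower. The differences of *Vldlr* (-0.718 points, adjusted p = 0.6004) and *Reln* (-2.27 points, adjusted p = 0.214) were not called. None of the 4 was called between E14.5 and E18.5, where 5.59% were.

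The sides of a shore were unequal. Upstream of *Vldlr*, the 22 CpGs had 27.0% and 30.4% in wild-type and 39.0% and 34.0% in homozygous E14.5 livers, whereas the 62 CpGs downstream stayed at the low level given above. The upstream values overlapped between genotypes in embryos (29.1% and 33.9% against 31.8% and 39.8%) and in E18.5 livers (32.4% and 34.3% against 35.4% and 30.9%). The *Dab1* values rest on few CpGs, 10 upstream and 17 downstream. In *Dab1* the genotypes were apart on the downstream side in E14.5 livers (28.3% and 33.9% against 40.3% and 38.2%) and by less on the upstream side (44.91% and 45.21% against 46.71% and 45.52%). In E18.5 livers *Dab1* was apart on both sides, upstream with 48.7% and 49.8% against 60.2% and 57.4%. In embryos its downstream side was apart (28.0% and 37.0% against 39.9% and 42.9%), while upstream the wild-type mean was higher (70.7% and 74.5% against 72.2% and 61.0%). Upstream of *Lrp8*, both homozygous embryos lay below both wild-type embryos (49.6% and 45.0% against 56.0% and 50.9%), and downstream both lay above (50.3% and 58.8% against 47.5% and 48.1%). The sides were not measured over all genes and carry no test.

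Over both sides, the shores had higher mean methylation in homozygous libraries for each gene at each stage, and no difference was called. Such a higher mean was found in 74.2%, 72.8% and 71.9% of the shores of all genes at E10.5, E14.5 and E18.5. With 1 library left out the sign changed for *Dab1* and *Lrp8* in embryos and for *Vldlr* and *Reln* in E18.5 livers. Equal weight per CpG gave *Lrp8* -0.425 points in E14.5 livers, and shores at 1 to 3 kb gave it -2.48 in E18.5 livers. The *Vldlr* difference in E14.5 livers was 3.42 points (8.52% and 11.4% against 14.2% and 12.6%, adjusted p = 0.145, edgeR), and the *Dab1* difference was 5.10 points (35.2% and 38.7% against 42.9% and 41.2%, adjusted p = 0.312). With 1 library left out the *Dab1* difference ranged from 3.32 to 6.89 points. In E18.5 livers *Dab1* differed by 6.32 points (42.3% and 42.5% against 50.6% and 46.8%, adjusted p = 0.494). Of all shores, edgeR called 1.67% at E10.5, 0.889% at E14.5 and 0.394% at E18.5, and the homozygous libraries lay above the wild-type libraries in 39.2%, 38.5% and 34.1%. With the replicate number as a block, or without wild-type replicate 2, the *Vldlr* shores in E14.5 livers were called (adjusted p = 0.0101 and 0.0122), in fits that called 4.76% and 2.33% of all shores. At this stage the replicate number also marks sex, so that the block compares genotypes within a sex. Averaged over the stages, the differences were 1.90 points for *Vldlr* (adjusted p = 0.0686, and 0.0334 with the block, in fits that called 13.3% and 16.9% of shores) and 4.12 for *Dab1* (adjusted p = 0.123), 2.06 for *Lrp8* and 1.52 for *Reln* (exact two-sided permutation p = 0.0556, 0.102, 0.111 and 0.0370). With CpGs of at least 10 reads the *Dab1* value was 7.74 points (adjusted p = 0.00624, edgeR), in a fit that called 12.8% of shores.

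**Figure D4:**
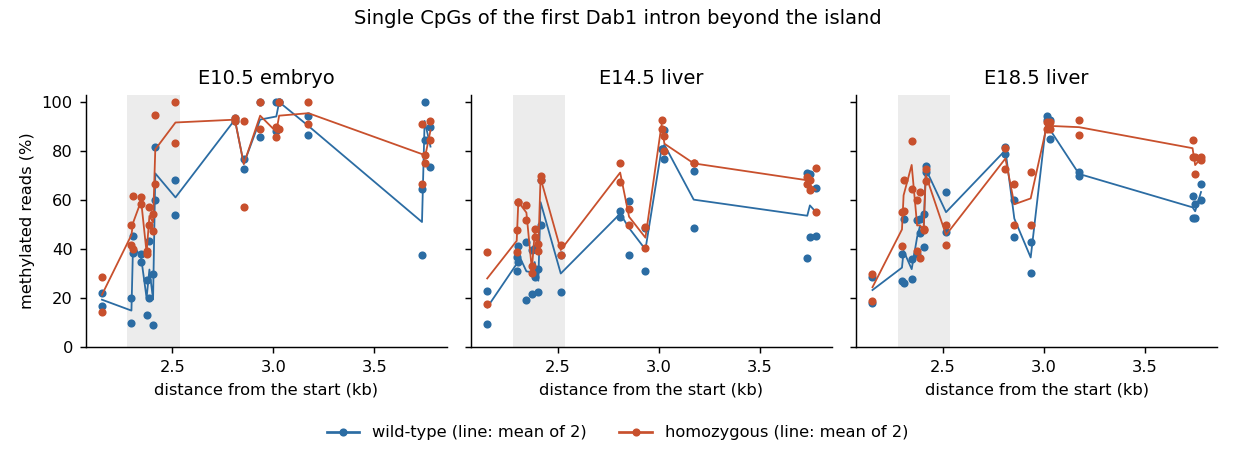
Percent of methylated reads at single CpGs (vertical axes, 0 to 100) of the first Dab1 intron that every library covered with 6 or more reads, against distance from the start in kb. Points are libraries, lines are means of 2, and the grey band marks the printed shore stretch. Most CpGs in the band have a higher mean in the homozygous libraries at each stage. The band was picked after its values were seen.

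The gene bodies showed the largest change by stage and *Lrp8* stood apart. The body of *Reln* fell from 84.9% and 84.7% in wild-type embryos to 63.7% and 67.2% in wild-type E14.5 livers (adjusted p = 2.32e-32), that of *Vldlr* from 79.3% and 80.4% to 55.04% and 60.3% (adjusted p = 2.2e-32) and that of *Dab1* from 83.1% and 84.0% to 62.4% and 65.5% (adjusted p = 1.86e-31), in edgeR. *Lrp8* had 68.1% and 68.9% in the embryos and 67.04% and 69.4% in the E14.5 livers (-0.307 points, adjusted p = 0.875). Among the bodies of 18243 genes 94.6% were called and 91.7% were called lower, with a median difference of -13.9 points, and the *Lrp8* difference ranked at 95.04% from the lowest. From E14.5 to E18.5 livers, *Vldlr* rose by 8.58 points (adjusted p = 0.000373), *Reln* by 7.06 (adjusted p = 0.00128) and *Dab1* by 6.01 (adjusted p = 0.00557), in a comparison where 51.3% of bodies were called and 50.8% were higher. *Lrp8* differed by 1.602 points (adjusted p = 0.415). In the homozygous libraries these later differences were 7.11, 6.29 and 5.22 points and were not called (adjusted p = 0.0653, 0.0714 and 0.123), in a fit that called 8.7% of bodies at a median of 4.52 points, against a median of 4.07 in wild-type libraries.

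Within the body, *Lrp8* changed unevenly along its length. Cut into 10 equal parts, the wild-type level of its part 7 was 54.3% and 58.3% in embryos and 67.4% and 70.8% in E14.5 livers, and that of part 3 was 62.6% and 64.5% against 68.7% and 68.6%. Part 2 went the other way, from 77.1% and 79.0% to 69.6% and 71.9%, as did part 8, from 89.8% and 89.1% to 79.5% and 82.5%. In part 3, the adjacent 1 kb tiles at chr4:107495001-107496000 and chr4:107496001-107497000, 20.1 and 21.1 kb into *Lrp8*, had 21.9% and 25.7%, and 29.9% and 27.9%, in wild-type embryos and 63.3% and 64.9%, and 65.9% and 59.0%, in wild-type E14.5 livers. These tiles were picked after their values were seen and were not tested between stages. In *Reln* and *Dab1* every part was lower in the wild-type E14.5 livers than in the wild-type embryos. In *Vldlr* this held too, and its first part was the least methylated, at 28.1% and 33.7% in embryos and 17.7% and 22.5% in E14.5 livers.

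**Figure D5:**
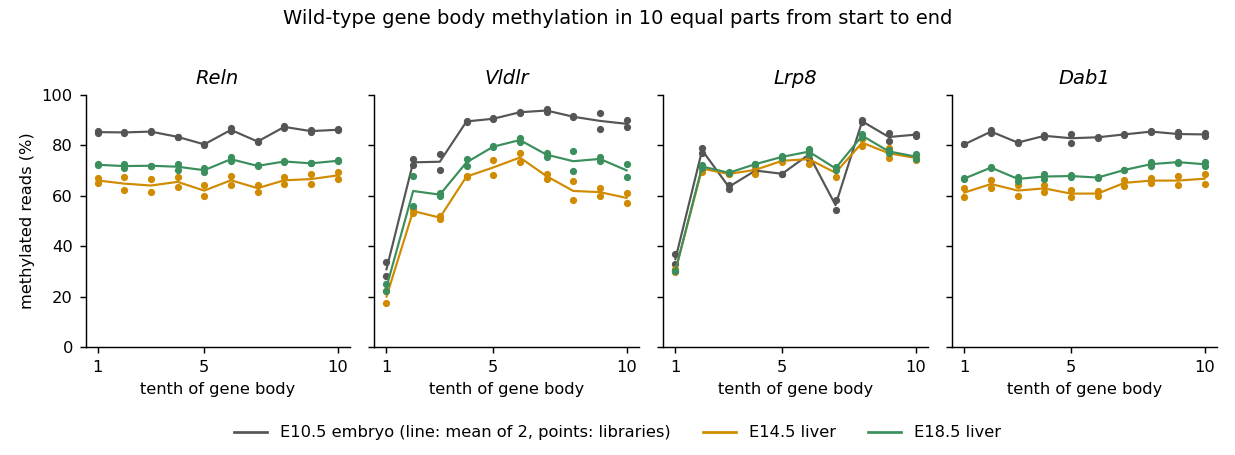
Percent of methylated reads (vertical axes, 0 to 100) in 10 equal parts of the gene body from start to end (horizontal axes), in wild-type libraries. Points are libraries and lines the means of 2 per stage. The E14.5 and E18.5 lines lie below the E10.5 line along Reln, Vldlr and Dab1, and cross it along Lrp8.

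Between genotypes, the bodies of *Dab1* and *Reln* were more methylated in homozygous embryos. *Dab1* had 83.1% and 84.0% in wild-type and 85.4% and 85.7% in homozygous E10.5 embryos (1.92 points, adjusted p = 0.00432), and *Reln* had 84.9% and 84.7% against 85.8% and 86.4% (1.30 points, adjusted p = 0.0244), in edgeR. The call for *Reln* was lost without homozygous replicate 2 (adjusted p = 0.288). *Lrp8* had 68.1% and 68.9% against 70.0% and 71.7% (2.32 points, adjusted p = 0.0623) and was called with the replicate block (adjusted p = 0.0171), where 18.4% of bodies were. *Vldlr* had 79.3% and 80.4% against 82.1% and 80.2% and overlapped. These 2 calls of 4 stood in a comparison where 14.3% of bodies were called and the median difference was 1.02 points. The 2 called bodies held 2487 (*Dab1*) and 2563 (*Reln*) CpGs. *Vldlr* and *Lrp8*, with 246 and 935, differed by 1.33 and 2.32 points, more than *Reln*, without a call. Both homozygous libraries lay above both wild-type libraries in 51.9% of bodies at E10.5, 42.4% at E14.5 and 37.3% at E18.5.

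In the livers no body of the 4 was called. In E14.5 livers *Vldlr* had 55.04% and 60.3% in wild-type and 61.2% and 60.9% in homozygous libraries (3.4 points, adjusted p = 0.709), and *Dab1* 62.4% and 65.5% against 67.3% and 66.4% (2.90 points, adjusted p = 0.709), where 1.28% of bodies were called and the median difference was 1.56 points. The wild-type replicate 1 was the lowest library for all 4 genes. Without wild-type replicate 2, all 4 bodies were called, with differences of 2.54 points in *Lrp8*, 3.75 in *Reln*, 4.46 in *Dab1* and 6.03 in *Vldlr*, but so were 42.9% of all bodies. In E18.5 livers *Dab1* had 69.6% and 70.25% against 73.8% and 70.29%, and *Reln* 72.2% and 72.9% against 76.3% and 71.2%, where 0.258% of bodies were called and the median difference was 1.90 points. Without homozygous replicate 2, *Vldlr* (2.95 points), *Dab1* (3.85) and *Reln* (3.76) were called, together with 60.0% of all bodies. Both counts then rest on 1 library in an arm, which is assumed to vary like the other arm.

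Pooled over the 3 stages, the body of *Dab1* was 2.31 points higher in homozygous libraries (adjusted p = 0.0120, edgeR), where 23.4% of bodies were called with a median difference of 1.51 points. Its homozygous libraries lay above the wild-type libraries at every stage, as for 15.3% of genes (exact two-sided permutation p = 0.00926, the smallest possible). Without the embryos the *Dab1* difference was 2.51 points (adjusted p = 0.240), and without the E14.5 livers 2.02 points (adjusted p = 0.110). *Vldlr* differed by 2.22 points (adjusted p = 0.0732, exact p = 0.0185), *Reln* by 1.51 (adjusted p = 0.0823, exact p = 0.167) and *Lrp8* by 1.28 (adjusted p = 0.241, exact p = 0.111). The interaction of genotype and stage was not called for any of the 12 gene and region pairs (edgeR, adjusted p = 1), where 0, 0.0367% and 0.0548% of windows, shores and bodies were.

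Inside the loci, taken as the whole annotated gene, from the distal start in *Dab1*, with 10 kb to either side, no 1 kb tile passed both limits, an adjusted p below 0.05 and more than 15 points between the genotypes. This holds for the main fits on all libraries, and at each stage some fits with 1 library left out did call tiles in the loci. The tiles tested by edgeR numbered 490 at E10.5, 818 at E14.5 and 574 at E18.5. Of these, 46, 73 and 33 had an unadjusted p under 0.05 in edgeR. Genome-wide this held for 63591 of 588774, 78993 of 879159 and 50277 of 666890 tiles. The shares of all tiles that were called were 0.371%, 0.125% and 0.138%. Leaving out 1 library moved these shares to between 0.156% (without wild-type replicate 1) and 0.594% (without wild-type replicate 2) at E10.5, 0.0876% (without homozygous replicate 1) and 0.39% (without wild-type replicate 2) at E14.5, and 0.0187% (without wild-type replicate 2) and 0.931% (without homozygous replicate 2) at E18.5. The largest difference was in *Dab1* at chr4:103737001-103738000, between its distal and its main start, with 44.8% and 54.4% in wild-type and 69.4% and 73.0% in homozygous embryos (21.6 points, adjusted p = 0.0614, 0.0201 with the replicate block). In E14.5 livers the largest was at chr4:103751001-103752000, also in *Dab1* (65.6% and 54.97% against 70.7% and 74.5%, adjusted p = 0.441, and 6.99 to 17.6 points with 1 library left out). In E18.5 livers it was again in *Dab1*, at chr4:104043001-104044000 in the first intron (64.7% and 61.8% against 81.7% and 77.9%, 16.5 points, adjusted p = 0.245). In *Vldlr*, the largest in both liver stages lay 2.8 kb upstream of the start, with 56.0% and 56.7% against 65.9% and 65.2% in E14.5 livers (adjusted p = 0.442). The largest in *Reln* was 12.3 points in E18.5 livers (60.3% and 72.5% against 77.3% and 80.1%, and 6.24 to 18.4 points with 1 library left out), and in *Lrp8* 13.2 points, 6.9 kb upstream, also in E18.5 livers.

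Tiles were also counted in which both homozygous libraries lay above both wild-type libraries. In E14.5 livers these were 16 of 30 tiles in *Vldlr* (53.3%), 28 of 86 in *Lrp8* (32.6%), 161 of 460 in *Dab1* (35%) and 82 of 242 in *Reln* (33.9%), against 33.3% of all tiles. At E10.5 the shares were 15.8% in *Vldlr* (3 of 19), 28.8% in *Lrp8*, 32.03% in *Dab1* and 23.9% in *Reln*, against 31.3% of all tiles. At E18.5 they were 27.3%, 22.1%, 26.5% and 24.2%, against 31.0%. The share in *Vldlr* was thus above that of all tiles in E14.5 livers and below it at the other stages. Over all 3 stages they were 1 of 18, 3 of 70, 11 of 247 and 5 of 138, against 5.66% of all tiles. Tiles of a gene are neighbours and share libraries, so they are not replicates. Of the 11 in *Dab1*, the one nearest downstream of the main start covers the printed shore stretch, at chr4:104042001-104043000. It had 34.1% and 43.5% against 55.9% and 54.2% in embryos (adjusted p = 0.130), 29.8% and 37.0% against 44.1% and 43.5% in E14.5 livers (adjusted p = 0.189) and 45.2% and 45.0% against 54.2% and 50.4% in E18.5 livers. A second pair of neighbouring *Dab1* tiles, starting at 103889001 and 103890001, 151 and 150 kb upstream of the main start, was also higher at all stages, the first with 29.0% and 33.8% against 37.9% and 46.0% in embryos.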

How the data were processed

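WGBS libraries were made from E10.5 embryos and E14.5 and E18.5 livers (2 per genotype and stage), and RNA-seq libraries from E14.5 livers (3 per genotype). For RNA-seq, the authors aligned reads with TopHat and deposited raw counts per gene made with HTSeq, without strand. For WGBS, the authors aligned reads with Bismark and Bowtie2 to mm9 carrying FVB substitutions, removed duplicates and deposited methylated and unmethylated read counts per CpG beside a rounded percent, which was used only as a check. The H3K4me1 samples were not analysed here.

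Members and lists were chosen with earlier results of these data known. Genes were placed with GENCODE vM1 on NCBIM37. Islands were computed from sequence (at least 500 bp, 55% GC, observed to expected CpG of 0.65). RNA counts were tested with edgeR 4.0.16 (quasi-likelihood, TMM, filterByExpr) in R 4.3.3, with DESeq2 1.42.0 as an alternative. Methylated and unmethylated counts were tested with edgeR over all regions (5 or more CpGs of at least 6 reads in all 12 libraries) and over 1 kb tiles (8 or more CpGs), with Benjamini-Hochberg adjustment at 0.05. The steps were tested on simulated data. Counting intervals were not used, and p-values rest on the spread between libraries. Single values over the stages were tested by an exact permutation of genotypes within stages, which within 1 stage cannot go below 0.333. From each companion list every gene called was named, with the 3 others of largest absolute log2 fold change and at least 1 CPM. The 3 genes most like each member and, per member and stage, the tile of largest difference were also named. Tools for figures and tables were python 3.11.15, pandas 2.3.3, pysam 0.24.0 and matplotlib 3.10.9.

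Same-numbered RNA livers deviated together (r = 0.125, 0.226 and 0.409 over 14183 genes), and replicate 3 is the female liver of each genotype. Each wild-type liver was closest in these deviations to the homozygous liver of its own number, also among replicates 1 and 2, which were all male. Whether the numbers pair the livers beyond sex was not tested further. The printed RNA values are from the fit without the block, and the blocked value is given where it changes a call or count. In WGBS each stage had 2 pairs, with r between -0.0561 and 0.437, too few to establish a pairing. At E14.5 the number also marks sex (replicate 1 male, replicate 2 female), so the block there is a block on sex. Alternatives were other normalisation, filters, read minimums, start, shore and island definitions, equal weight per CpG, a replicate block, sex as a covariate, and leaving out each replicate or stage.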

Additional observations from a re-analysis of the deposited data

How the results depend on the processing

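Of 686 comparisons with an alternative over 153 results, leaving out no replicate, 642 were counted as the same. For tested values this meant the same side of the threshold, and the same direction in methylation and in called genes. For log2 fold changes of the members and for equal weight per CpG it meant a shift smaller than the SD between libraries. For counts it meant a ratio within a set limit. Effects of 1 or 2 points in WGBS rest on 2 libraries a group and 14.7 to 32.6 reads per CpG, and *Dab1* on at most 54 reads a liver. The causes of the changes below were not tested.

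RNA calls numbered 532 with no filter and 460 with the replicate block, and 0 in the Reelin pathway list with DESeq2, which also lost *Efnb2* and called *Thbs1* (adjusted p = 0.00259), as did edgeR with no filter (0.00197), sex as a covariate (0.0486) or the replicate block (0.0109). Leaving out a replicate gave 66 to 224 calls, 0 to 0 in the Reelin pathway and 1 to 3 in the LDL receptor family. With the replicate block in WGBS, the *Lrp8* body in embryos (2.32 points, adjusted p = 0.0171, edgeR), the *Reln* start window (0.55) and *Vldlr* shores (3.42) in E14.5 livers, the *Vldlr* shores over the stages (1.90) and 1 *Dab1* tile in embryos were called. At E14.5 this block is also a block on sex, and at the other stages the sex is the same throughout. It changed no other call of a member.

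In embryos, the start window difference was -0.0674 in *Vldlr* and 0.457 in *Dab1* from the 5′-most start, -0.146 in *Lrp8* and 0.345 in *Reln* with 2 kb to either side, and 0.0095 in *Vldlr* and -0.184 in *Dab1* with equal weight per CpG. With 2 kb *Vldlr* had -0.101 in E18.5 livers. Equal weight gave *Lrp8* -0.289 (start) and -0.425 (shores) in E14.5 livers, and 0.0321 (*Lrp8* start), 1.43 (*Vldlr* shores) and 4.15 (*Reln* shores) in E18.5 livers. Also in E18.5 livers, shores at 1 to 3 kb gave *Lrp8* -2.48, at least 1 read gave *Reln* shores -0.0205, and at least 10 reads gave the *Lrp8* body -0.0008. Over the stages, at least 10 reads gave the *Lrp8* start -0.0002 and *Dab1* shores 7.74 (now called). Without E10.5 or E14.5, the *Lrp8* start gave -0.0237 and -0.0195 and the *Dab1* body 2.51 and 2.02 (not called). In homozygous libraries, E18.5 minus E14.5 was -0.251 (*Vldlr* start), -0.308 (*Reln* start), -1.30 (*Vldlr* shores) and 7.11, 5.22 and 6.29 (*Vldlr*, *Dab1* and *Reln* bodies, not called), and E14.5 minus E10.5 was 0.699 (*Vldlr* shores).

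Leaving out a replicate, embryo differences ranged from -0.0017 to 0.101 (*Lrp8* start), -0.187 to 0.0415 (*Reln* start), -4.61 to 6.47 (*Dab1* shores), -0.278 to 2.65 (*Lrp8* shores), 1.46 to 3.18 (*Lrp8* body) and 1.003 to 1.597 (*Reln* body). In E14.5 livers they ranged from -0.0275 to 0.110 (*Lrp8* start), 1.96 to 4.87 (*Vldlr* shores), and in bodies 0.772 to 6.03 (*Vldlr*), 1.35 to 4.46 (*Dab1*), 0.206 to 2.54 (*Lrp8*) and 0.259 to 3.75 (*Reln*). In E18.5 livers they ranged from -0.468 to 1.06 (*Vldlr* shores), -0.742 to 1.1202 (*Reln* shores), and in bodies 0.905 to 2.95 (*Vldlr*), 0.363 to 3.85 (*Dab1*), -0.836 to 1.14 (*Lrp8*) and -1.29 to 3.76 (*Reln*). Called tiles in the loci ranged from 0 to 1 in embryos (1 without wild-type replicate 2 or homozygous replicate 1), 0 to 2 in E14.5 livers (2 without wild-type replicate 2) and 0 to 6 in E18.5 livers (6 without homozygous replicate 2).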
